A study of Mus musculus with 2 samples.

Results

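Among the cells of the aortic arch, the ND library held a small group of barcodes in which Scgb1a1, the secretoglobin that marks airway club cells, made up a large part of all RNA counted. A barcode was taken as a club cell barcode when it had at least 200 genes, at least 200 UMIs (distinct RNA molecules counted) and at most 30% mitochondrial UMIs, when Scgb1a1 gave at least 2% of its UMIs, and when at least 2 of 5 further genes had a UMI, namely Cyp2f2, Scgb3a2, Krt18, Krt8 and Epcam. By this rule 53 of 5416 kept ND barcodes were club cell barcodes, which is 0.979% (exact Clopper-Pearson 95% interval, 0.734 to 1.28%). In the HFD library 0 of 2739 kept barcodes met it, and a count of 0 allows a share of up to 0.110% on the limit of 3 counts and 0.135% by the exact interval. Both libraries together hold 8155 kept barcodes.

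Single-cell RNA sequencing was performed on the aortic arch of male Apoe-/- mice on the C57BL/6 background, 16 weeks old. The normal diet (ND) group was fed chow, and the high-fat, high-cholesterol diet (HFD) group was fed that diet from weaning. Cells from 2 aortas were pooled into 1 library per diet after digestion with a lung dissociation kit. There were no replicates, so no difference between diets and no difference between cells was tested, and every interval below covers counting error only.

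Club cells, formerly called Clara cells, are secretory cells of the airway lining and are not a cell type of the vessel wall. They release secretoglobins, BPI fold proteins and other antimicrobial proteins into the airway fluid, they carry cytochrome P450 and other enzymes that act on inhaled compounds, and they serve as progenitors of ciliated cells. Basal cells lie below them and can renew them in the trachea and large airways. Whether airway tissue entered with the dissected vessel is not stated in the sources used here and was not tested.

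The Scgb1a1 share chose these barcodes, so its values are a description. It ran from 2.28% through a median of 22.3% to 48.8% of a barcode's UMIs. The 3 barcodes just inside the limit had 2.28%, 2.36% and 2.67%, and the 3 just outside had 1.62%, 1.61% and 1.46%. The highest HFD barcode had 0.0206%. The requirement for further genes removed no barcode, since 41 of the 53 had all 5 further genes, 8 had 4 and 4 had 3.

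**Figure D1:**
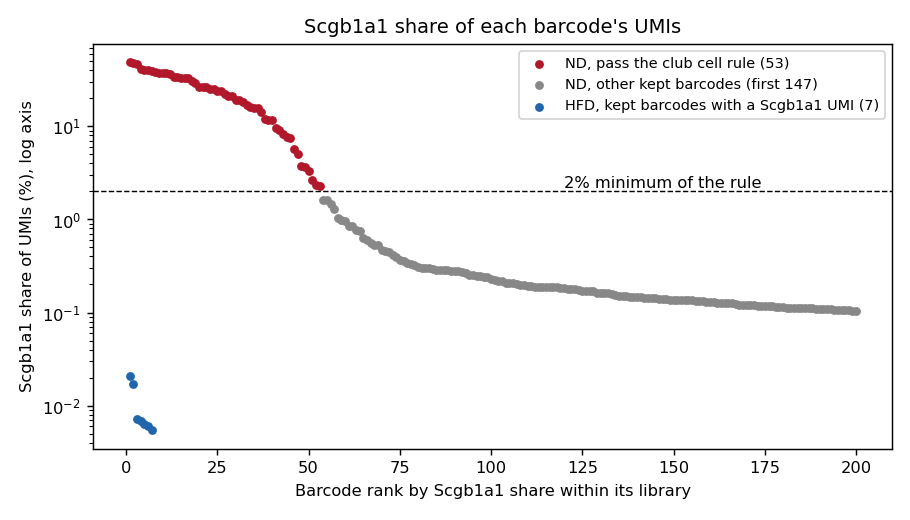
Scgb1a1 share of UMIs (percent, log axis) of kept barcodes, ranked within each library, with the 2% limit as a dashed line. The 53 club cell barcodes of the ND library lie between 2.28% and 48.8%, the other ND barcodes shown lie at or below 1.62%, and the 7 HFD barcodes with a Scgb1a1 UMI lie at or below 0.0206%.

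The club cell barcodes were large. They held between 1191 and 61331 UMIs with a median of 20699, against a median of 3702 in the other 5363 ND barcodes, and 38 of the 53 had more than 3 times that median. Their median number of genes was 3174 against 1471. Their mitochondrial share was 2.87 to 21.7% with a median of 6.75%, below the median of 16.9% in the other ND barcodes. In all they held 1153935 UMIs, or 4.25% of the 27137322 UMIs of the kept ND barcodes. Of the 53, 9 also had a UMI of both defining genes of another class. These were Pecam1 and Cdh5 of endothelial cells in 5, Dcn and Pdgfra of fibroblasts in 2, Csf1r and C1qa of macrophages in 2, and Cd79a and Ms4a1 of B cells in 1. No doublet caller was run, and these 9 are given apart below where values depend on them. The libraries shared 39 barcodes, of which 1 was kept in both and 0 were club cell barcodes.

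Every club cell barcode carried the other secretory genes as well. Bpifa1, a secreted BPI fold protein of the airway surface, was counted in 53 of 53 barcodes at 0.0443 to 19.8% of UMIs with a median of 6.11%. Scgb3a1, a secretoglobin, ranged from 0.0817 to 7.92% with a median of 3.48%. Scgb3a2, the secretoglobin that was part of the rule, ranged from 0.760 to 7.17% with a median of 2.72%. Together with Scgb1a1 these 4 genes made up 38.1% of all UMIs of the 53 barcodes. Cyp2f2, the P450 enzyme that activates naphthalene in mouse club cells, had 0.133 to 2.25% with a median of 0.789%. The lowest Bpifa1 value rests on 1 UMI in a barcode of 2258 UMIs. Bpifb1, another BPI fold protein, lay between 0.0111 and 1.69%, Wfdc2, a secreted WAP domain protein, between 0.125 and 1.70%, and Reg3g, an antibacterial lectin, between 0.00980 and 2.07%, each in 53 of 53 barcodes. These are shares of counted molecules and are not scaled by transcript length.

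**Figure D2:**
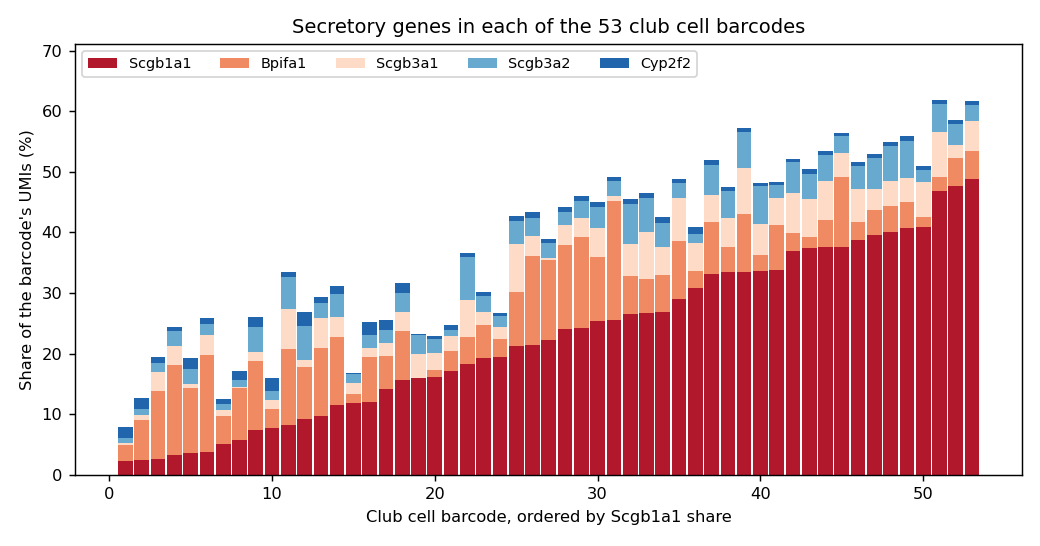
Share of UMIs (percent) given by Scgb1a1, Bpifa1, Scgb3a1, Scgb3a2 and Cyp2f2 in each of the 53 club cell barcodes, stacked and ordered by the Scgb1a1 share. Scgb1a1 ranges from 2.28 to 48.8%, and Bpifa1 exceeds Scgb1a1 in 10 barcodes, all of them with a Scgb1a1 share under 10%. The highest Bpifa1 share is 19.8%, so Bpifa1 cannot exceed Scgb1a1 where the Scgb1a1 share is above that value.

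The genes that lead these barcodes lie on several chromosomes of GRCm38 (GENCODE M21). Scgb1a1 (ENSMUSG00000024653) lies on chromosome 19 at 9083636 to 9087958 on the minus strand, Scgb3a1 (ENSMUSG00000064057) on chromosome 11 at 49663610 to 49665118, and Cyp2f2 (ENSMUSG00000052974) on chromosome 7 at 27119909 to 27133660. The BPI fold genes Bpifa1 (ENSMUSG00000027483) and Bpifb1 (ENSMUSG00000027485) are neighbours in a cluster on chromosome 2, at 154142880 to 154149219 and 154190818 to 154220369.

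Airway secretory genes are known to be controlled by the factors FOXA1, FOXA2 and NKX2-1, and all 3 factor genes were counted in these barcodes (below). The 250 bases before the start were therefore searched on both strands for the FOXA letters TGTTTAC and TGTTTGC and the NKX2 letters CTCAAG, which do not overlap one another. Of the 20 genes with the largest ratio (below), 14 matched an entry of the RefSeq table (GRCm38.p6), with 17 promoters. Scgb1a1, Scgb3a2, Tff2, Lypd2, Muc5b and Cxcl5 matched no entry, so their promoters were not searched. A FOXA match was found in 2 genes and an NKX2 match in 4, and by promoter in 2 and 4 of the 17. Over all 32851 promoters of the same length, 7.29% held a FOXA match and 13.3% an NKX2 match. The promoters of 3 secretory genes with a match are shown because they hold the matched letters, in lower case with the matched letters in capitals. In Scgb3a1 (chr11:49663345-49663594, plus strand) a FOXA match lies on the opposite strand 55 bases before the start and an NKX2 match on the opposite strand at 172 bases. In Bpifb1 (chr2:154190568-154190817, plus strand) a FOXA match lies on the opposite strand at 43 bases. In Bpifa1 (chr2:154142630-154142879, plus strand) an NKX2 match lies on the opposite strand at 213 bases. A match is a run of letters and not a binding site.
Scgb3a1: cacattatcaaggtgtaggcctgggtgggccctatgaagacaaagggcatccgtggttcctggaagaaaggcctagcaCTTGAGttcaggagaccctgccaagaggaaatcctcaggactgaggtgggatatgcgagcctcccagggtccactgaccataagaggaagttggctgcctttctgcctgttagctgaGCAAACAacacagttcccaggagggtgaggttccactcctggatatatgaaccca
Bpifb1: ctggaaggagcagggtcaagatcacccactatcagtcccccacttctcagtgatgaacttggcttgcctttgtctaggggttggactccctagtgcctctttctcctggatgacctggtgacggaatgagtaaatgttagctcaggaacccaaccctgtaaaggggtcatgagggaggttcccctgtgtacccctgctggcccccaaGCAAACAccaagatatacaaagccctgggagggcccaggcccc
Bpifa1: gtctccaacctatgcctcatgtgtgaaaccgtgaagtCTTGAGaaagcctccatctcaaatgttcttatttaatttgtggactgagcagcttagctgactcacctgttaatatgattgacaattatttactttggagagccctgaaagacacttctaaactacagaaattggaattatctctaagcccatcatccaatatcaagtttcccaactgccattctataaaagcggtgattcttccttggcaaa

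To set the club cell barcodes against the other ND cells, each gene's UMIs were summed over a group and scaled to the total of that group (CPM, UMIs per 1e6 UMIs). The ratio of both sums, with 10 CPM added to each, was taken for 14495 genes with at least 20 UMIs over the kept ND barcodes. At least 4-fold higher were 211 genes (1.46%) and at least 4-fold lower were 729 (5.03%), and the median ratio over all genes was 0.795. The barcodes were chosen on these same counts, so the ratios describe them and support nothing. Lists of genes were set against the 1.46% and 5.03%.

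Scgb1a1 had the largest ratio, 1332, with 267887 UMIs in the 53 barcodes (232151 CPM, exact Poisson 95% interval 231273 to 233032) and 4269 in all other ND barcodes (164 CPM, 159 to 169). Scgb3a2 followed with 35225 against 28.7 CPM, then Scgb3a1 with 40891 against 68.6 CPM. This order depended on the cells compared, since against gated mesothelial barcodes the ratios were 1504 for Scgb1a1, 3523 for Scgb3a2 and 1515 for Scgb3a1. The 3 secretoglobins that could be compared were all at least 4-fold higher, and Scgb1a1 and Scgb3a2 among them were genes of the rule. Scgb1c1 had 1 UMI.

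Of 21 BPI fold, mucin and antimicrobial genes compared, 15 were at least 4-fold higher and 1 was at least 4-fold lower, with a median ratio of 21.2. Bpifa1 had 72619 against 218 CPM, and Bpifb1 had 5597 against 4.50 CPM. Wfdc2 and Reg3g had ratios of 159 and 157. The other ND cells include 17 epithelial barcodes (below), and without them the ratio was 1186 in place of 319 for Bpifa1, 417 for Wfdc2, 430 for Reg3g and 483 in place of 146 for Cyp2f2. Among the mucins, Muc5b, the gel-forming mucin of the airways, was counted in 51 barcodes at 1012 against 1.35 CPM, while Muc5ac, the mucin of goblet cells, had 5 UMIs in 4 barcodes. The membrane mucins Muc1, Muc4 and Muc16 had ratios of 26.7, 6.00 and 9.17, and Muc20 had 47 UMIs against 0 in the other ND cells. Tff2, a trefoil peptide of mucous secretions, was counted in 44 barcodes at 1238 against 0.924 CPM, Ltf, the iron-binding lactoferrin, in 49 at 2009 against 13.2 CPM, and Pigr, which carries IgA across epithelium, in 49 at 685 against 3.43 CPM. Other secreted defence genes were low. Slpi had 3 UMIs (2.60 CPM) against 46.0 CPM in the other cells, Lyz1 had 2 UMIs, and Lcn2 had 21 UMIs (18.2 against 42.1 CPM).

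Enzymes of xenobiotic and aldehyde metabolism were the largest list, and 20 of 28 compared were at least 4-fold higher and 0 at least 4-fold lower, with a median ratio of 8.80. Among the 20, Cyp2f2 was a gene of the rule. Cyp2f2 had 8794 against 50.3 CPM and Cyp2a5, another P450 enzyme, 1599 against 16.4 CPM, a value that is uncertain because a near-identical paralog can share its reads. Cbr2, a lung carbonyl reductase, had 5244 against 86.2 CPM, Gsto1, a glutathione transferase, 3786 against 26.8 CPM, and Aldh1a1, a retinal dehydrogenase, 3175 against 60.5 CPM. All 4 of Cyp2f2, Cbr2, Gsto1 and Aldh1a1 were counted in 53 of 53 barcodes. Cyp1a1, the P450 enzyme induced through the aryl hydrocarbon receptor, had 1 UMI against 524 in the other ND cells.

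Epithelial keratins and junction genes were at least 4-fold higher in 18 of 23 compared (median ratio 7.99), 3 of which were genes of the rule. Of those outside the rule, Krt19, a simple epithelial keratin, had 580 against 13.4 CPM in 48 barcodes, Cdh1, the epithelial cadherin, 244 against 4.04 CPM in 48, and Cldn7, a claudin of tight junctions, 224 against 3.62 CPM in 45. Jup, plakoglobin, which endothelial junctions use too, was not of this kind, with 135 against 244 CPM. Cldn18, the claudin of alveolar cells, had 0 UMIs.

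Among transcription factor genes of the airway, 9 of 14 compared were at least 4-fold higher and 0 at least 4-fold lower, with a median ratio of 6.65. Nkx2-1, the factor that specifies lung epithelium, had 109 UMIs in 35 barcodes (94.5 against 1.35 CPM). Foxa1 had 159 UMIs in 37 barcodes (138 against 1.66 CPM), and Foxa2 had 31 UMIs in 18 (26.9 against 0.693 CPM), for a ratio of 3.45. Sox2, the factor of the conducting airway, had 110 UMIs in 37 barcodes. The epithelial factors Klf5, Elf3 and Ehf had ratios of 21.7, 14.7 and 11.3. Spdef, the factor of mucous cells, had 8 UMIs in 6 barcodes. Hes1, a target of Notch signalling, was counted in 46 barcodes but at 269 against 638 CPM in the other cells.

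Ion and water transport genes were at least 4-fold higher in 6 of 10 compared (median ratio 7.26). They included the water channels Aqp5 (287 against 2.46 CPM) and Aqp4 (147 against 1.66 CPM) and Scnn1a, a subunit of the epithelial sodium channel (125 against 5.58 CPM). Cftr, the chloride channel of ionocytes and secretory cells, had 1 UMI. Among chemokines and epithelial cytokines 3 of 10 were at least 4-fold higher (median ratio 2.30). These were Cxcl5, which draws neutrophils (468 against 2.19 CPM in 47 barcodes), Cxcl17, a mucosal chemokine (368 against 3.66 CPM in 50), and Cxcl15, a lung chemokine (38.1 against 0.0770 CPM in 18). The alarmins Il33 and Tslp had 3 and 0 UMIs.

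Genes known from both ends of the airway tree were counted. The 8 compared genes of bronchiolar secretory cells and the 8 of tracheal secretory cells were all at least 4-fold higher, with median ratios of 14.5 and 136. In the bronchiolar list 2 were genes of the rule, Scgb3a2 and Cyp2f2, and in the tracheal list 0 were. Of the bronchiolar list, Hp, haptoglobin, had 698 against 76.2 CPM and Cckar, the cholecystokinin A receptor, 41.6 against 0.116 CPM, while Upk3a, a uroplakin, had 0 UMIs. Of the tracheal list, Lypd2 had 2428 against 12.8 CPM. Krt15, also in that list, had 297 against 2.62 CPM, but it is used below as a basal cell gene too, so it does not mark secretory cells alone.

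Alveolar genes gave a mixed picture. Of 7 genes of alveolar type 2 cells compared, 2 were at least 4-fold higher and 1 was at least 4-fold lower (median ratio 1.10). Sftpa1, surfactant protein A, which club cells also make, had 1579 against 2.62 CPM in 46 barcodes, and Sftpb had 66.7 against 0.269 CPM in 16. Sftpd, the collectin kept in the secretion list, had 356 against 0.616 CPM in 46. The defining gene Sftpc had 2 UMIs, and Lamp3 and Napsa had 0. Of 7 type 1 genes compared, 1 was at least 4-fold higher, Aqp5, and 1 was at least 4-fold lower (median ratio 1.12), and Ager had 0 UMIs. None of 3 genes of neuroendocrine and tuft cells passed 4-fold.

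The lists of vessel wall and blood cells were low. All 8 endothelial genes compared were at least 4-fold lower, with a median ratio of 0.0671, as were all 8 fibroblast genes. At least 4-fold lower were also 4 of 6 smooth muscle genes, 5 of 7 macrophage genes, 4 of 5 B cell genes, 4 of 5 erythroid genes and 1 of 6 T cell genes. The summed endothelial list stood at 250 CPM in all 53 barcodes and at 25.4 CPM in the 44 without the defining pair of another class. The fibroblast list stood at 556 CPM and, in those 44, at 493 CPM, and the macrophage list at 1445 and 1235 CPM. Lyz2 was the exception of the macrophage list, with 1337 against 879 CPM in 43 of 53 barcodes, while Csf1r had 9 UMIs in 2. None of 5 cycling genes passed 4-fold, and Mki67 had 0 UMIs. Apoe, inactivated in all of these mice, had 20 UMIs (17.3 CPM, 10.6 to 26.8), against 47.6 CPM in the other ND cells, and a count at one end of the transcript may lie outside the deleted part.

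**Figure D3:**
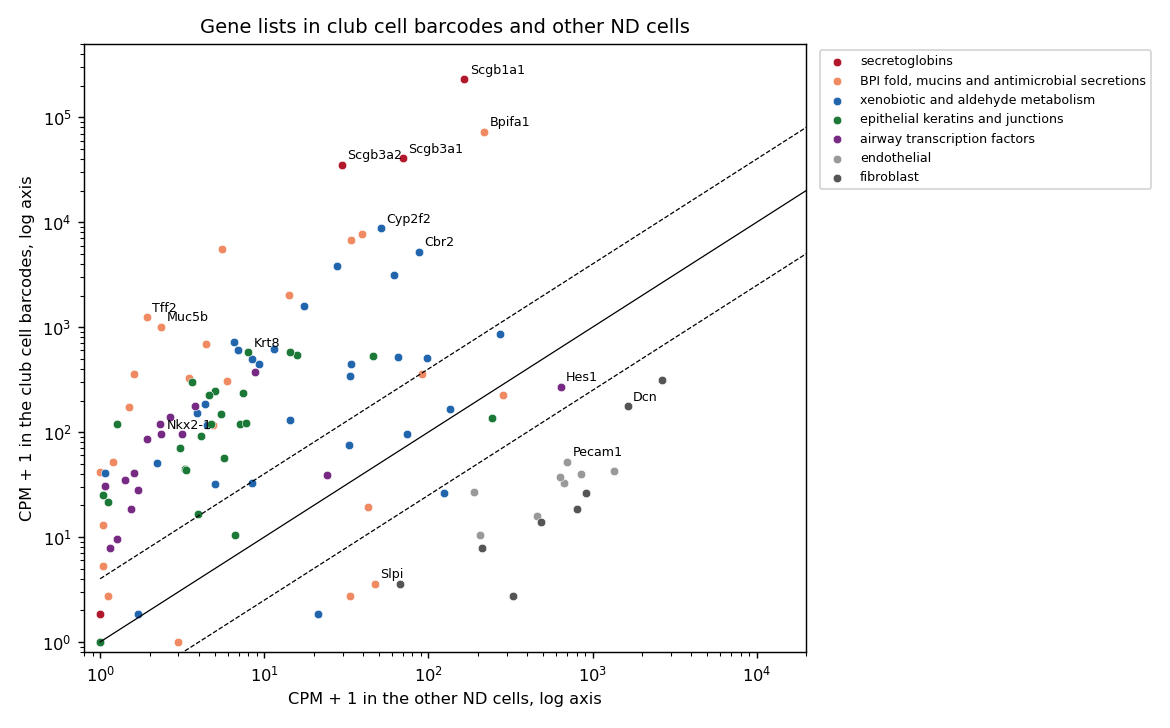
Summed CPM plus 1 of genes of 7 lists in the 53 club cell barcodes (vertical, log axis) and in the other ND cells (horizontal, log axis), 1 point per gene, with the solid line at equality and dashed lines at 4-fold on these axes. Secretoglobins, secretions, metabolic enzymes, epithelial genes and airway factors lie mostly above the upper dashed line, and the 8 endothelial and 8 fibroblast genes lie below the lower one.

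Mesothelial cells, which line the body cavities and carry simple keratins as well, were also present, and 19 ND barcodes were gated by Upk3b and Msln alone. Simple keratins were counted in both, and none of Krt7, Krt8, Krt18 and Krt19 differed by 4-fold. Krt8 stood at 576 CPM (533 to 622) in club cell and 331 CPM (236 to 453) in mesothelial barcodes, and Krt18 at 544 (502 to 589) and 306 CPM (214 to 423). Krt19 stood at 580 (537 to 625) and 765 CPM (615 to 940) and Krt7 at 120 (100.5 to 141) and 229 CPM (151 to 334). The intervals of Krt8 and Krt18, higher in club cell barcodes, and of Krt7, higher in mesothelial ones, lay apart on this scale. Scgb1a1 stayed in these totals, at 232151 CPM in club cell and 144 CPM in mesothelial barcodes, which lowers the other club cell values. Whether the intervals of Krt7 lie apart without Scgb1a1 was not tested. Epcam, Cdh1, Cldn7 and Krt15 had 0 UMIs in the 19 mesothelial barcodes, where 0 UMIs allow up to 31.3 CPM. Of 21 epithelial genes compared, 9 were at least 4-fold higher in the club cell barcodes, against 292 of 5888 genes (4.96%) in this comparison as a whole. Msln, mesothelin, was also counted in 44 club cell barcodes at 318 CPM, against 1300 CPM in the mesothelial ones. Upk3b, Nkain4, Lrrn4, Wt1 and Rspo1 all had 0 UMIs in the club cell barcodes.

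The barcodes differed among themselves along the Scgb1a1 share. To keep Scgb1a1 out of the denominator, levels were taken as CPM over the UMIs of all other genes, and barcodes were grouped by a share under 10% (13 barcodes), 10 to 30% (22) and 30% or more (18). Scgb3a1 stood at 25136, 52238 and 82805 in these groups, Scgb3a2 at 25452, 44557 and 68434, and Bpifb1 at 1671, 6960 and 13430. Muc5b stood at 508, 1380 and 1996, Tff2 at 93.6, 1907 and 2543, and Hp at 107, 859 and 1790. All 6 secretory genes had their lowest value in the first group and their highest in the last. The groups use the share that chose the barcodes, and barcodes of 1 library are not replicates, so these values and the correlations are a description. Across the 53 barcodes, Spearman's rho with the Scgb1a1 share was 0.77 for Hp, 0.73 for Scgb3a1, 0.70 for Scgb3a2, 0.68 for Bpifb1, 0.66 for Muc5b and 0.66 for Tff2.

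Bpifa1 and Cyp2f2 went another way. Bpifa1 stood at 114353, 94867 and 74593 in the same groups (rho -0.09) and Cyp2f2 at 13332, 10926 and 10606 (rho -0.21). Reg3g stood at 9692, 8311 and 8741. In 10 of the 53 barcodes Bpifa1 had more UMIs than Scgb1a1. All 10 were among the 13 with a share under 10%, and 0 were among the 18 with 30% or more. The highest Bpifa1 share of any club cell barcode was 19.8%, so it could not exceed a Scgb1a1 share of 30% or more. The groups are cut on Scgb1a1 itself, so the place of these 10 barcodes is a description and shows nothing further about Bpifa1. Depth moved with the groups in part, with median UMIs of 9626, 21848.5 and 20705, and the groups held 3, 5 and 1 barcodes with the defining pair of another class. The Scgb1a1 share itself had a rho of 0.16 with UMIs and -0.08 with the mitochondrial share. The part of depth or mixing in these differences was not tested.

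The basal cell genes given here and Foxj1 were scarcest at high Scgb1a1 shares, while other ciliated cell genes were highest in the middle group. Krt5, a keratin of basal cells, was counted in 5 of 13, 5 of 22 and 1 of 18 barcodes of the 3 groups, at 183, 60.0 and 35.0 CPM on the same scale. Trp63, the basal cell factor, was counted in 7, 6 and 1 barcodes (102, 71.6 and 8.75), and Krt15 stood at 713, 360 and 118. Across the 53 barcodes Krt5 had a rho of -0.38 with the Scgb1a1 share and of 0.41 with UMIs, and Trp63 of -0.47 and 0.31. Krt14 had 0 UMIs. Foxj1, the factor of motile cilia, was counted in 7, 7 and 2 barcodes, at 187, 71.6 and 8.75. In the first group 34 of its 42 UMIs were in 1 barcode, which also had the defining pair of another class. Ccdc153 stood at 13.4, 53.1 and 13.1, Tmem212 at 13.4, 64.6 and 17.5 and Dynlrb2 at 89.1, 104 and 13.1. Over all 53 barcodes, 4 of 7 basal cell genes compared and 3 of 12 ciliated cell genes were at least 4-fold higher than in the other ND cells. The highest of the ciliated list was Sec14l3, at 315 against 7.54 CPM in 46 barcodes, where Foxj1 was counted in 16.

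To count barcodes that carried several such genes, at least 3 of Krt5, Trp63, Aqp3 and Krt15 were asked for basal genes and at least 3 of Foxj1, Ccdc153, Dynlrb2 and Tmem212 for ciliated genes, a rule chosen after the values had been seen. Of the 53 club cell barcodes, 13 carried the basal set, 9 the ciliated set, 2 of these both, and 33 neither. Among the 44 barcodes without the defining pair of another class the counts were 10, 8 and 1. Barcodes with the basal set alone (11) had a median of 30943 UMIs, those with the ciliated set alone (7) 21702, and those with neither 18066. Whether such barcodes held 1 cell or more than 1 was not tested.

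A further 17 kept ND barcodes fell short of the Scgb1a1 limit but had a UMI of at least 3 of Epcam, Cdh1, Krt8 and Krt18. Of these, 9 carried the ciliated set, 6 the basal set and 2 neither, while among the 5346 remaining ND barcodes 2 and 1 did. In the 9 ciliated barcodes Foxj1 stood at 872 CPM (706 to 1065), against 199 CPM (133 to 286) in the 7 club cell barcodes with the ciliated set alone. Ccdc153 stood at 1462 CPM (1245 to 1706) against 151 CPM (94.8 to 229). Scgb1a1 gave 43 UMIs in these 9, or 390 CPM. In the 6 basal barcodes Krt5 stood at 330 CPM (204 to 505), against 180 CPM (140 to 228) in the 11 club cell barcodes with the basal set alone, and Trp63 at 142 (64.7 to 269) against 122 CPM (89.2 to 163). Aqp3, a water channel of basal cells, stood at 739 CPM (543 to 983) against 320 CPM (266 to 383). The intervals of Foxj1, Ccdc153 and Aqp3 lay apart in these pairs, and those of Krt5 and Trp63 overlapped. They pool the UMIs of each group and leave out the spread between barcodes. Of the 121 Aqp3 UMIs in the 11 club cell barcodes, 47 were in 1 barcode. Both sides of each pair were picked by UMIs of these same genes, so the values are a description only. Scgb1a1 stayed in the totals here, at 211412 CPM in the club cell barcodes with the ciliated set alone and 144722 CPM in those with the basal set alone. The 2 club cell barcodes with both sets had Foxj1 at 611 CPM (426 to 849.7), which overlapped the ciliated barcodes, with 34 of its 35 UMIs in 1 barcode.

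Cyp2f2 was not confined to the club cell barcodes. It was counted in 9 of 9 ciliated barcodes at 5630 CPM (5196 to 6091) and in 6 of 6 basal barcodes at 5095 CPM (4555 to 5681), against 8794 CPM in the 53. The Scgb1a1 level of these barcodes was 390 and 393 CPM, against 154 CPM in the rest of the library, and 2 barcodes stood above the others, with 21 UMIs (0.187%) and 15 UMIs (0.119%). In the 2 barcodes with neither set, 1 had 3366 Bpifa1 and 238 Scgb1a1 UMIs among 14702, which is the barcode at 1.62% just outside the limit. The HFD library held 2 barcodes with at least 3 of the 4 epithelial genes, of which 0 carried either set.

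**Figure D4:**
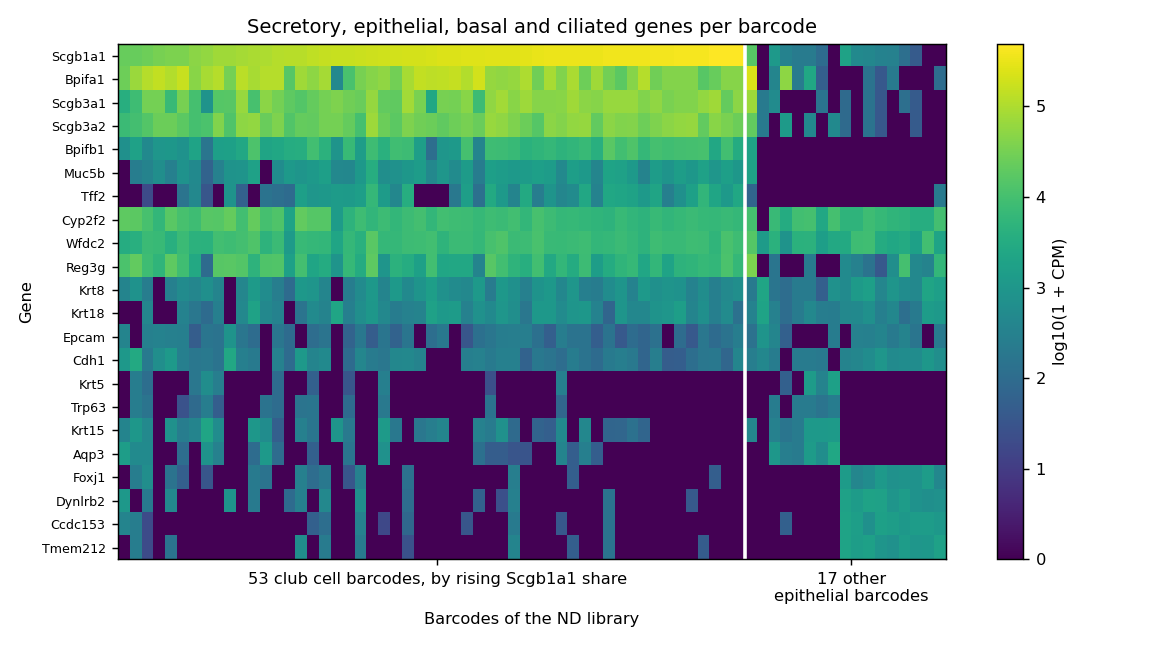
Level of 22 genes as log10 of 1 plus CPM (colour) in the 53 club cell barcodes, ordered by rising Scgb1a1 share, and in 17 other epithelial barcodes right of the white line. Krt5, Trp63 and Foxj1 are found in 1, 1 and 2 of the 18 club cell barcodes with a share of 30% or more, and the 9 ciliated barcodes at the far right carry Cyp2f2 with little Scgb1a1.

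Scgb1a1 was also counted throughout the rest of the ND library. It had a UMI in 41.0% (39.7 to 42.3%) of the 5363 other ND barcodes, with 13.9% after each was thinned to 1000 UMIs and 63 shallower ones were left out. It was found in every class gated, none of which is known to make it. With barcodes passing 1 gate alone, it had a UMI in 44.3% of 2188 endothelial barcodes (median 3987 UMIs, 14.0% thinned), 33.6% of 636 fibroblast barcodes (11.2% thinned), 44.9% of 323 macrophage barcodes (12.1% thinned), 37.7% of 488 B cell barcodes (12.9% thinned) and 43.0% of 158 T cell barcodes (median 2669 UMIs, 21.5% thinned). The summed level was 152, 152, 145 and 142 CPM in the first 4 and 269 CPM (225 to 319) in T cells. Counted per barcode it was 0.812, 0.676, 0.743 and 0.586 UMIs in the first 4 and 0.829 in T cells, and 0.865 in the ND barcodes left out by the filter that did not meet the rule, which had a median of 876 UMIs. The part of free RNA in these counts was not tested.

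Bpifa1, Scgb3a1 and Bpifb1 stood in nearly the same proportion to Scgb1a1 in the rest of the library as a whole. Per 100 Scgb1a1 UMIs, the club cell barcodes held 31.3 of Bpifa1, 17.6 of Scgb3a1, 15.2 of Scgb3a2 and 2.41 of Bpifb1. The 5346 ND barcodes that were neither club cell nor other epithelial barcodes held 33.4 (31.3 to 35.5) of Bpifa1, 17.9 (16.5 to 19.4) of Scgb3a1 and 2.25 (1.80 to 2.77) of Bpifb1. Scgb3a2 was lower there, with 10.2 (9.18 to 11.3), and Wfdc2 was higher, with 5.53 against 3.32. Cyp2f2 had 5.35 (4.64 to 6.14) against 3.79, but 84 of its 212 UMIs were in 10 barcodes, and endothelial barcodes had 3.49 (2.66 to 4.49). By class, Scgb3a2 had 8.95 (7.56 to 10.5) in endothelial, 7.44 (5.03 to 10.7) in fibroblast and 10.1 (6.67 to 14.9) in B cell barcodes, whose intervals lay below 15.2, and 11.2 (7.26 to 16.8) in macrophage, 15.3 (9.03 to 24.6) in T cell and 14.2 (11.6 to 17.4) in ungated barcodes, whose intervals held it. Scgb3a1 had 20.4 (18.1 to 22.8) in endothelial barcodes, whose interval lay above 17.6. Its intervals in fibroblast, macrophage, T cell, B cell and ungated barcodes held 17.6. Between classes Bpifa1 lay on both sides of 31.3. It was lower in fibroblast barcodes, with 23.3 (18.5 to 29.0). It was higher in macrophage barcodes with 42.9 (33.7 to 54.3), B cell barcodes with 39.9 (31.8 to 49.7) and ungated barcodes with 40.6 (35.5 to 46.3). The intervals of endothelial barcodes, 31.1 (28.2 to 34.3), and T cell barcodes, 32.8 (22.7 to 46.6), held 31.3. When the 17 other epithelial barcodes were counted in, Bpifa1 stood at 133, since 2 of the 17 held 3366 and 950 of its UMIs.

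**Figure D5:**
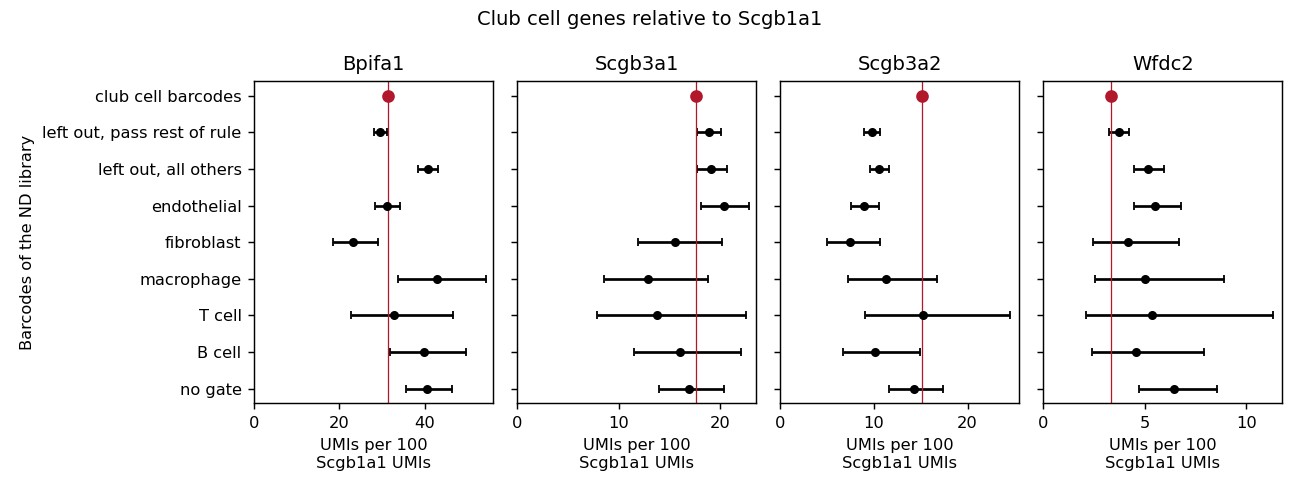
UMIs of Bpifa1, Scgb3a1, Scgb3a2 and Wfdc2 per 100 Scgb1a1 UMIs (horizontal) in groups of ND barcodes (rows), with exact 95% intervals as bars and the value of the 53 club cell barcodes as a red line. Scgb3a1 lies near the red line in most groups. The bars of Scgb3a2 lie left of it in endothelial, fibroblast and B cell barcodes and in both groups of left-out barcodes.

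The HFD library held almost no Scgb1a1. Scgb1a1 had 7 UMIs in 7 of 2739 HFD barcodes (0.256%, 0.103 to 0.526%), or 0.407 CPM (0.164 to 0.839), against 164 CPM in the ND barcodes outside the club cell group. Scgb3a2, Bpifa1, Bpifb1, Reg3g, Muc5b, Tff2 and Sftpa1 had 0 UMIs among 17191279, and Cyp2f2 had 3. Median depth was higher in HFD, with 5336 UMIs per barcode. Genes of the metabolic list that other cells also make were counted in HFD, such as Cbr2 with 1642 UMIs (95.5 CPM, close to the 86.2 CPM of the other ND cells) and Gsto1 with 567 UMIs. With 1 library per diet, diet, animals and dissection cannot be told apart.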

How the data were processed

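The authors demultiplexed reads, aligned them and counted UMIs per gene and barcode with Cell Ranger (3.0.1 in the file headers), and the submitters' processing notes also name bcl2fastq, UMI-tools, Seurat 3.2.0, R 4.0.0 and the build mm10. The deposited values are raw UMI counts of 31053 genes in 1 library per diet, not normalized, with 10234 ND and 14225 HFD barcodes. The filter stated in the study (at least 200 UMIs, at most 30% mitochondrial UMIs, with at least 200 genes) left 5416 and 2739 barcodes, the numbers that the study gives. Groups come from the labels. The barcode rule, the gene lists and the comparisons were chosen with earlier results of these data known.

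UMIs were summed per group and given as CPM. Intervals at 95% are exact, Poisson for sums, Clopper-Pearson for shares and conditional binomial for UMIs per 100 Scgb1a1 UMIs. Genes with at least 20 UMIs were compared after adding 10 CPM, and 4-fold was the limit. Each class was gated by a UMI of both of 2 defining genes, and barcodes passing more than 1 gate were left out of the classes. Genes named were the 20 with the largest ratio among those counted in at least 25% of the club cell barcodes, any gene of the lists, and Malat1, Fth1 and Tpt1 as the 3 most counted outside them without mitochondrial and ribosomal genes. Apoe was added as the inactivated gene, and Gabrp, Selenbp1, 5330417C22Rik, Cyp4a12b, Gpx2 and Prdx6 were added after their values were seen. No doublet caller was run. With 1 library per diet there was no test. Barcodes were thinned to 1000 UMIs with a fixed seed. Ratios were tested on simulated data. Alternatives changed the limits of the rule, the scaling, the weights and the cells compared. Python 3.11.15, numpy 2.4.6, scipy 1.17.1, pandas 2.3.3 and matplotlib 3.10.9 were used. Depth was 27137322 UMIs in kept ND and 17191279 in kept HFD barcodes, and intervals do not cover variation between mice.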

Additional observations from a re-analysis of the deposited data

Results flagged for a closer look

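Among the 4818 ND barcodes that the filter left out, 50 met the Scgb1a1 and further-gene parts of the rule, and among 11486 left-out HFD barcodes 0 did. They are outside the comparisons above and are given because the same search found none in the other library. All 50 had more than 30% mitochondrial UMIs (30.2 to 87.9%, median 75.9%), 36 of them also had fewer than 200 genes, and 14 failed the mitochondrial limit alone. Scgb1a1 made up 2.04 to 34.0% of their UMIs, with a median of 7.42%. Per 100 Scgb1a1 UMIs they held 29.6 (28.0 to 31.2) of Bpifa1 and 18.9 (17.7 to 20.1) of Scgb3a1, near the 31.3 and 17.6 of the 53 club cell barcodes, and 9.77 (8.95 to 10.6) of Scgb3a2 against 15.2. Whether these barcodes hold damaged cells or free RNA was not tested.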

How the results depend on the processing

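The number of club cell barcodes, 53, lay between 41 (at most 10% mitochondrial UMIs) and 67 (no mitochondrial limit) under 9 alternatives, and HFD had 0 in each of 3 alternatives run there. The number of genes at least 4-fold higher, 211, lay between 199 and 299 under all alternatives but 1. The 299 came from CPM without mitochondrial genes and Scgb1a1. In that setting 11 of 14 airway factor genes and 9 of 10 ion and water transport genes passed 4-fold, in place of 9 and 6. The exception was 71 with 50 CPM added, which by construction lowers the ratio of scarce genes. With 50 CPM added, 8 of 23 epithelial genes, 2 of 14 airway factor genes and 0 of 7 basal genes passed 4-fold. The number at least 4-fold lower was then 173 in place of 729, with 7 endothelial, 7 fibroblast, 0 smooth muscle and 2 macrophage genes among them. Against mesothelial barcodes 9 epithelial genes passed, 2 endothelial genes were higher and 1 lower, and with a Scgb1a1 minimum of 5% 1 ciliated gene passed. Adding 50 CPM moved the median log2 ratio of all genes, -0.33, by 0.22, and the mesothelial comparison moved it by 0.20. The 20 leading genes stayed at least 4-fold higher in all 179 values computed, the lowest being 7.05. They had been picked for the largest ratios in the same barcodes, so this was nearly fixed by the choice. The share of other ND barcodes with a Scgb1a1 UMI, 41.0%, was 13.9% after thinning and 13.6% when 2 UMIs were asked for, and 40.5% or 40.9% without barcodes with epithelial genes. The alternatives that leave out the 17 other epithelial barcodes were chosen after seeing the data. No paired analysis was possible because there is 1 library per diet and the labels carry no replicate numbers. Depth limits what a count of 0 shows, up to 3.20 CPM over the 53 barcodes and 31.3 CPM over the 19 mesothelial ones.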

Other observations

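Of the 211 genes at least 4-fold higher in the club cell barcodes, 122 were in none of the lists. With mitochondrial and ribosomal genes left aside, the most counted genes outside the lists and the 20 leading genes were widely expressed ones, with Malat1, a nuclear long noncoding RNA, at 8728 CPM against 20097 CPM in the other ND cells, Fth1, ferritin heavy chain, at 3056 against 3280 CPM, and Tpt1 at 2798 against 3697 CPM. The leading secretory genes stayed in these totals, so the direction for Fth1 and Tpt1 is uncertain. By ratio, chosen after their values were seen, the first genes outside the lists were Gabrp, a GABA receptor subunit (361 against 0.885 CPM, in 49 of 53 barcodes), Selenbp1, a selenium-binding protein (1056 against 29.1 CPM, in 53), 5330417C22Rik (in 49) and Cyp4a12b, a P450 enzyme (259 against 0.346 CPM, in 45). Cyp4a12a, which is nearly identical to Cyp4a12b, had 0 UMIs, so the split of reads between both is uncertain. Gpx2, an epithelial glutathione peroxidase, had 265 against 2.39 CPM, and Prdx6, a peroxiredoxin abundant in lung, 1607 against 109 CPM.

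In the HFD library Scgb3a1 was the most counted of the secretoglobins, with 75 UMIs in 18 barcodes, of which 35 were in 1 barcode. Scgb1a1 had at most 1 UMI in any HFD barcode.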
